A study of Mus musculus with 6 samples.

Results

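The genes that oxidise, export and esterify sterols were examined in bulk liver RNA of mice fed a diet that induces metabolic dysfunction–associated steatohepatitis (MASH). The 10 genes were *Ch25h*, *Abca1*, *Abcg1*, *Abcg5*, *Abcg8*, *Soat1*, *Soat2*, *Lpcat3*, *Mylip* and *Scarb1*, out of 25403 genes listed with a count. They were picked by symbol as oxysterol and liver X receptor (LXR) regulated genes, and *Ch25h* was on the list because its rise in livers labelled *Themis*-KO had been seen to be among the largest. The genotype difference of *Ch25h* is therefore given as a description without a test. The other 9 were chosen with results of the same comparison known, so their values are no independent evidence on sterol genes as a group.

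The study asked how *Themis*, a gene best known for T cell receptor signalling in thymocytes, shapes the response of the liver to a MASH diet. It compared 3 wild-type C57BL6/J livers (WT) with 3 livers from mice with a whole-body *Themis* knockout (*Themis*-KO). Mice of both genotypes ate a diet that drew 40% of its energy from fat and 20% from fructose and held cholesterol at 2%, begun at an age of 10 to 12 weeks and kept up for 3 months. No chow-fed liver was part of this comparison, so every value below is a level under a cholesterol-rich diet. The knockout acts in every cell type, and the labels give neither sex nor the strain background of the *Themis*-KO mice.

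Cholesterol that a cell cannot use is oxidised, exported or stored as an ester. LXRα and LXRβ, encoded by *Nr1h3* and *Nr1h2*, sense oxysterols and bind DNA together with a retinoid X receptor (RXR). Their classical targets include the efflux pumps ABCA1 and ABCG1, the ABCG5–ABCG8 pair, the phospholipid acyltransferase LPCAT3 and the ubiquitin ligase MYLIP. In hepatocytes ABCG5 and ABCG8 form a single heterodimer that moves cholesterol and plant sterols into bile, ABCA1 loads apolipoprotein A-I to start high density lipoprotein (HDL) particles, and SCARB1 takes cholesterol from HDL back into the cell. SOAT1 and SOAT2 esterify cholesterol for storage or for packing into lipoproteins, with SOAT2 the hepatocyte enzyme and SOAT1 common in macrophages and other cells. CH25H makes 25-hydroxycholesterol, an oxysterol that holds back the SREBP2 programme of cholesterol synthesis and is further converted by CYP7B1 into a ligand of the immune cell receptor GPR183.

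The sequences just ahead of 3 start sites are shown because these genes carry the largest rise, the classical LXR target and the pair that moved together. Each runs 5′ to 3′ on the strand of the named gene and was taken from RefSeq on GRCm38.p6. For *Ch25h* the 250 bases before its start lie on the reverse strand at chr19:34475149-34475398, and the capitals mark TGACGTCA, the cAMP response element, from -61 to -54 counted from the start. For *Abca1* the 250 bases lie on the reverse strand at chr4:53159896-53160145, and the capitals mark a match from -67 to -52 to a direct repeat of AGGTCA with 4 free bases between the 2 copies, the kind of element that LXR and RXR bind. For *Abcg5* and *Abcg8*, which are transcribed away from each other, the 109 bases between their starts lie at chr17:84683012-84683120, are written on the *Abcg8* strand, and have capitals on 2 matches to the motif of GATA factors. That motif was searched as AGATAA and appears here as TTATCT, its other strand.
Ch25h: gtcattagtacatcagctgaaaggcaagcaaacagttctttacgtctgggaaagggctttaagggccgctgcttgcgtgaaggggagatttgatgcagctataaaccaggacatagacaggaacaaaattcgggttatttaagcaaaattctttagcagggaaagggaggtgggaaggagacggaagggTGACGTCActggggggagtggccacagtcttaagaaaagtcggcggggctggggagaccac
Abca1: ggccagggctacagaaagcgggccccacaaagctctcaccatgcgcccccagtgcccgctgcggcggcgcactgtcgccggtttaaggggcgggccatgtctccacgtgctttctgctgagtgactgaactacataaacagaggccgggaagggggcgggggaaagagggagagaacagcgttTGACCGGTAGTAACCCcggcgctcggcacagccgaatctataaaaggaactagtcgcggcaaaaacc
Abcg5-Abcg8: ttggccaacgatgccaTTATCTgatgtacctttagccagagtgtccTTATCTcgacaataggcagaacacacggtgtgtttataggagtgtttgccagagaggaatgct
Both strands were searched. TGACGTCA reads the same on both strands and occurred in 1.56% of 32536 windows of this length. The direct repeat was searched with up to 3 mismatches, a loose rule that 18.5% of the windows meet, and its match in *Abca1* reads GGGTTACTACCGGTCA on the other strand. AGATAA occurred in 9.97% of the windows. A match describes letters only. RefSeq also lists a start of *Abcg8* farther upstream, inside *Abcg5*, and the 2 genes share 82 exonic bases on opposite strands.

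Sequencing gave 20679642 to 25649767 gene counts per liver, and 14496 genes were abundant enough to be tested, all 10 sterol genes among them. Levels are counts per 1000000 after scaling of the libraries by the TMM method (CPM), and differences are log2 fold changes of livers labelled *Themis*-KO over livers labelled WT from the quasi-likelihood test of edgeR, with p-values adjusted after Benjamini and Hochberg over all 14496 genes and a threshold of 0.05. The labels do not say how the livers of a group were related, so the p-values measure only the spread between these 6 samples. *Themis* itself had a CPM of 8.07, 25.6 and 12.0 in the livers labelled WT and 8.63, 7.74 and 9.97 in those labelled *Themis*-KO. These ranges overlap, so the count of this gene did not separate the labels, and each direction below rests on the labels. A count over the whole gene can include RNA from outside the deleted part, which is not given in the sources used here. WT replicates 1 and 2 also stood apart from the other 4 livers: *Gm28438*, a nuclear copy of the mitochondrial gene *mt-Nd3*, took 96.6% and 96.8% of the counts of both genes there, against 2.20% to 3.26% in the others. In bulk RNA, fewer cells of a type and less RNA per cell cannot be told apart.

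The bile-directed pair *Abcg5* and *Abcg8* fell to 51.9% and 51.2% of the WT level, and the HDL-directed pump *Abcg1* rose 1.52-fold, in livers labelled *Themis*-KO. These were the 3 calls among the 9 genes other than *Ch25h*, 1 higher and 2 lower, where 9.11% of all tested genes were called, 4.97% higher and 4.14% lower. *Abca1*, *Scarb1*, *Soat1* and *Mylip* had adjusted p-values between 0.05 and 0.1 (edgeR, Benjamini-Hochberg), and the groups overlapped for *Soat2* and *Lpcat3*. At an unadjusted p under 0.05 stood 7 of the 9, against 30.7% of all tested genes. The groups did not overlap in CPM for 7 of the 9, 3 higher and 4 lower, against 34.6% of all tested genes, 17.7% higher and 16.9% lower. Nothing is read from these shares, since the same comparison was known when the genes were chosen. The calls depended on single livers. With any 1 of the livers numbered 1 or 2, of either label, left out, 0 of the 10 genes passed the threshold in edgeR. At an unadjusted p under 0.05, 8 of them stayed. In the same fits 8 to 27 of all genes were called higher and 12 to 57 lower, of 14738 to 14855 tested. Without WT replicate 3, 2 of the 10 were called higher and 2 lower, beside 481 and 369 of 14830 genes. Without *Themis*-KO replicate 3, 3 (*Ch25h* among them) and 5 were called, beside 2228 and 2039 of 14806 genes. The *Gm28438* share was also entered as a covariate, as high or low with a split at 50%. This leaves 1 liver labelled WT on the side of those labelled *Themis*-KO. The adjusted p-values by edgeR were then 0.264 for *Abcg5*, 0.302 for *Abcg8* and 0.471 for *Abcg1*. The study describes the livers as pairs, but whether the replicate numbers mark them is not known. With these numbers as a block, the adjusted p-values by edgeR were 0.0607, 0.0643 and 0.0946 for the same 3 genes, and none passed.

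**Figure D1:**
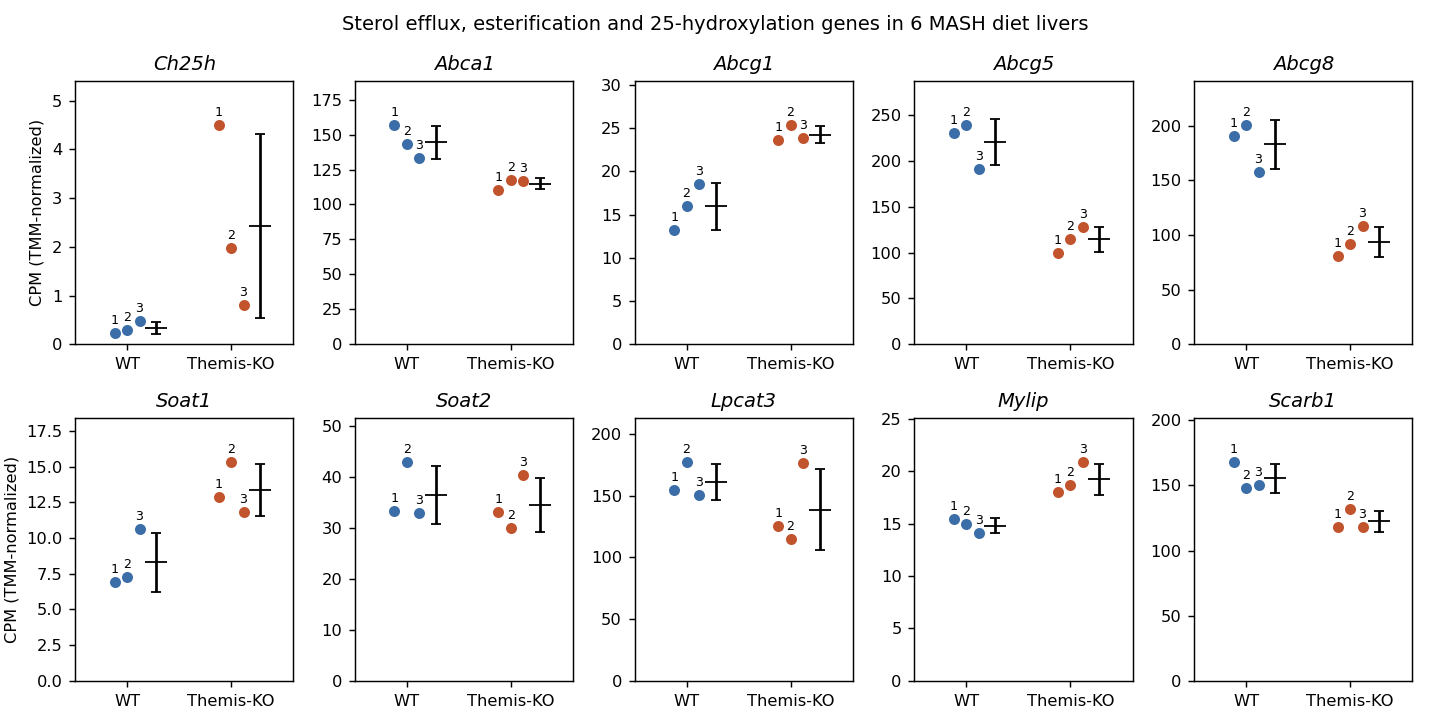
CPM of each of the 10 genes in each of the 6 livers, with 1 panel per gene, an axis from 0, replicate numbers beside the points, and a bar for the mean and SD of 3 livers. The points of *Abcg5* and *Abcg8* labelled *Themis*-KO all lie under those labelled WT, and the *Ch25h* points labelled *Themis*-KO are spread from 0.803 to 4.50.

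*Ch25h* (ENSMUSG00000050370) has 1 exon and lies on chromosome 19, 34473778 to 34475164, reverse strand. It was close to the limit of detection in livers labelled WT, with 5, 6 and 12 counts in replicates 1, 2 and 3, or 0.229, 0.288 and 0.474 CPM. In livers labelled *Themis*-KO it had 106, 46 and 17 counts, or 4.50, 1.98 and 0.803 CPM. Every liver labelled *Themis*-KO thus lay above every liver labelled WT, but the *Themis*-KO livers differed more from each other than the nearest livers of the 2 groups did. Replicate 1 was 5.61 times replicate 3, whereas *Themis*-KO replicate 3 was 1.70 times WT replicate 3. The exact 95% Poisson intervals of those last livers, which cover counting error only, were 0.468 to 1.29 and 0.245 to 0.827 CPM and overlap. The mean was 0.330 ± 0.127 CPM (SD, n = 3) in livers labelled WT and 2.43 ± 1.89 CPM (SD, n = 3) in livers labelled *Themis*-KO, a ratio of means of 7.35 that became 4.21 without *Themis*-KO replicate 1. The fitted log2 fold change was 2.84. Of the exonic bases, 11.5% are shared with *Gm26902* on the opposite strand, which had at most 1 count in any liver.

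Markers of other cells also varied within the groups. The summed CPM of 4 neutrophil markers was 21.1, 14.9 and 6.90 in *Themis*-KO replicates 1, 2 and 3 and 5.37 to 9.08 in livers labelled WT. The most abundant of these was *Csf3r*, the receptor for granulocyte colony-stimulating factor, at 12.7, 8.82 and 4.53 CPM in the same 3 livers. The summed CPM of 8 cholangiocyte markers, mostly *Spp1*, was 632, 398 and 395 against 158 to 196. Of the 8, 4 were higher in *Themis*-KO replicate 3 than in replicate 2 and the rest were not, so they had no common order there. Macrophages are a known source of CH25H, and the 11 macrophage markers summed to 419, 540 and 389 CPM in *Themis*-KO replicates 1, 2 and 3 and to 252, 244 and 445 CPM in WT replicates 1, 2 and 3. The part of these cells in the *Ch25h* values was not tested.

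By the fixed measure of likeness, the root mean square difference of log2 CPM after centring each gene on its mean over the 6 livers, the closest gene to *Ch25h* was *Dusp5*, at 0.13. *Dusp5*, which encodes a phosphatase that switches off nuclear ERK, had 1.10, 1.34 and 2.25 CPM in livers labelled WT and 17.1, 9.76 and 3.16 CPM in those labelled *Themis*-KO. The next were *Usp43* at 0.29, *Lgals3* at 0.29, *Sdcbp2* at 0.29 and *Gm47163* at 0.31. *Lgals3*, which encodes galectin-3 and is high in macrophages, had 13.2, 15.8 and 28.2 CPM and then 122, 90.1 and 38.0 CPM. These genes were selected for their likeness to *Ch25h* over the 6 livers, so their common order of livers is no finding. Of the other 9 sterol genes, *Soat1* was the closest at 1.05 and ranked 1318 among the tested genes, and *Abcg8* was the farthest at 1.87. The measure counts the size of a change as well as the order of livers, and *Ch25h* was chosen for the size of its change. The distances of the other 9 are therefore no finding either.

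*Abcg5* (ENSMUSG00000040505; chromosome 17, 84658234 to 84683011, reverse strand) encodes 1 chain of the biliary sterol pump whose shared upstream sequence is printed above. Its CPM was 230, 239 and 192 in livers labelled WT and 99.99, 115 and 128 in livers labelled *Themis*-KO. The highest liver labelled *Themis*-KO stayed well under the lowest labelled WT. The means were 220 ± 25.3 and 114 ± 13.9 CPM (SD, n = 3 each), and the log2 fold change was -0.95 (adjusted p = 0.0128 by edgeR, SE 0.13), or 51.9% of the WT level. *Abcg8* (ENSMUSG00000024254; chromosome 17, 84676302 to 84700333, forward strand), the other chain, had 191, 201 and 158 CPM and then 80.7, 91.8 and 108 CPM. Again the groups were well apart, and within each group the livers kept the order that *Abcg5* had. The means were 183 ± 22.6 and 93.7 ± 14.0 CPM (SD, n = 3 each), and the log2 fold change was -0.97 (adjusted p = 0.0146 by edgeR, SE 0.14), or 51.2% of the WT level.

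The ratio of *Abcg5* to *Abcg8* counts, which no scaling of libraries touches, was 1.21, 1.19 and 1.21 in livers labelled WT and 1.24, 1.25 and 1.18 in those labelled *Themis*-KO. The group means differed by a factor of 1.02, and by 1.00 to 1.03 with any 1 liver left out. That difference is within the spread of the livers. The ratio of *Abcg5* to *Abca1* counts, which was not among the planned ratios, was 1.47, 1.67 and 1.43 and then 0.906, 0.979 and 1.09. These groups did not overlap, and *Abcg5* stood lower relative to *Abca1* in every liver labelled *Themis*-KO. The lower ratio restates that *Abcg5* was at 51.9% and *Abca1* at 79.5% of the WT level, and is no further finding.

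*Abca1* (ENSMUSG00000015243; chromosome 4, 53030787 to 53159895, reverse strand), the pump that starts HDL and whose upstream sequence is shown above, had 157, 143 and 133 CPM in livers labelled WT. In livers labelled *Themis*-KO it had 110, 118 and 117 CPM. The groups did not overlap, and the *Themis*-KO values were nearly equal. The means were 145 ± 11.8 and 115 ± 3.99 CPM (SD, n = 3 each), and the log2 fold change of -0.33 (adjusted p = 0.0562 by edgeR, SE 0.089) missed the threshold. It passed with DESeq2 (adjusted p = 0.0169), and without *Themis*-KO replicate 3 (adjusted p = 0.0303 by edgeR).

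*Abcg1* (ENSMUSG00000024030; chromosome 17, 31057675 to 31117988, forward strand), which hands cholesterol to mature HDL and is abundant in macrophages, went the other way. Its CPM was 13.2, 16.03 and 18.6 in livers labelled WT and 23.6, 25.4 and 23.8 in those labelled *Themis*-KO. Each *Themis*-KO liver was above each WT liver, and WT replicate 3 was the highest of its group. The means were 15.9 ± 2.69 and 24.3 ± 0.978 CPM (SD, n = 3 each), and the log2 fold change was 0.60 (adjusted p = 0.0372 by edgeR, SE 0.13). The ratio of *Abca1* to *Abcg1* counts was 11.9, 8.95 and 7.18 in livers labelled WT and 4.68, 4.63 and 4.91 in those labelled *Themis*-KO. The mean ratio was 0.508 times the WT ratio, and between 0.455 and 0.588 times with any 1 liver left out, and the groups did not overlap. The macrophage marker sum was also highest within the WT group in replicate 3, and its part in the *Abcg1* values was not tested.

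*Soat1* and *Soat2* encode the enzymes that esterify cholesterol. *Soat1* (ENSMUSG00000026600; chromosome 1, 156424525 to 156474331, reverse strand) had 6.93, 7.29 and 10.7 CPM in livers labelled WT and 12.9, 15.4 and 11.8 CPM in those labelled *Themis*-KO. The groups did not overlap, but WT replicate 3 and *Themis*-KO replicate 3 were close. The means were 8.29 ± 2.05 and 13.3 ± 1.82 CPM (SD, n = 3 each), and the log2 fold change of 0.68 (SE 0.19, 95% interval 0.24 to 1.13) had an adjusted p of 0.0626 by edgeR. It passed the threshold in 5 of 15 alternative fits, among them DESeq2 (adjusted p = 0.0192), edgeR with libraries scaled by total counts alone (adjusted p = 0.0473) and edgeR without WT replicate 3 (adjusted p = 0.0331 by edgeR).

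*Soat2* (ENSMUSG00000023045; chromosome 15, 102150526 to 102163469, forward strand) had 33.3, 43.0 and 32.99 CPM and then 33.1, 29.9 and 40.3 CPM. The groups overlapped throughout. The log2 fold change was -0.081 (adjusted p = 0.738 by edgeR, SE 0.15), with a 95% interval of -0.42 to 0.26 that does not settle its sign, and scaling by total counts alone gave 0.057. The ratio of *Soat2* to *Soat1* counts was 4.81, 5.89 and 3.10 in livers labelled WT and 2.57, 1.95 and 3.42 in those labelled *Themis*-KO. The replicates numbered 3 crossed, and so these groups overlap, with means of 4.60 ± 1.41 and 2.64 ± 0.736 (SD, n = 3 each).

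**Figure D2:**
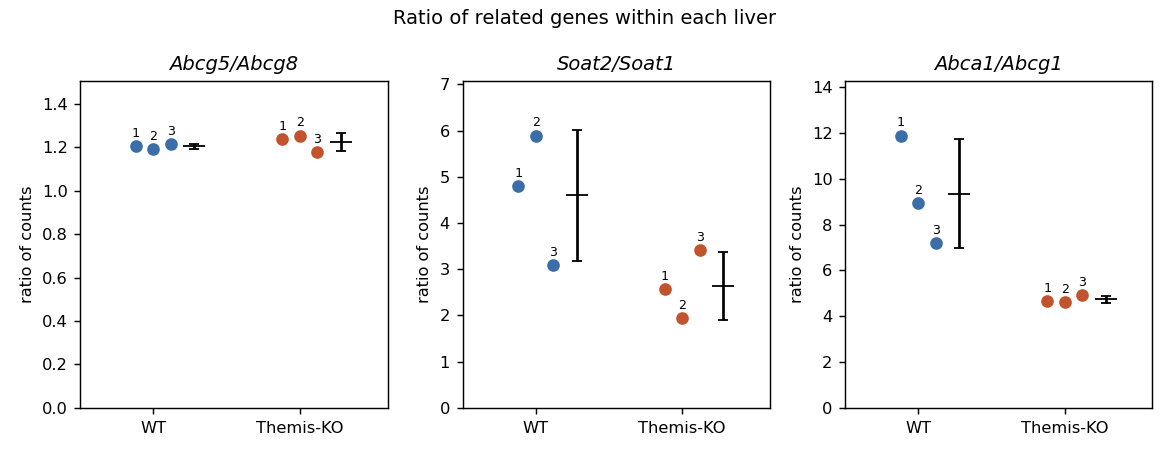
Ratio of counts within each liver for *Abcg5* to *Abcg8*, *Soat2* to *Soat1* and *Abca1* to *Abcg1*, with axes from 0, replicate numbers beside the points and bars for the mean and SD of 3 livers. The first ratio stays between 1.18 and 1.25 in all 6 livers, the second overlaps between the groups, and the last is at or under 4.91 in livers labelled *Themis*-KO and at or above 7.18 in those labelled WT.

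*Scarb1* (ENSMUSG00000037936; chromosome 5, 125277087 to 125341094, reverse strand), the HDL receptor, had 168, 148 and 150 CPM in livers labelled WT and 118, 132 and 118 CPM in those labelled *Themis*-KO. The groups did not overlap, and *Themis*-KO replicate 2 came nearest to WT. The means were 156 ± 11.04 and 122 ± 8.04 CPM (SD, n = 3 each), and the log2 fold change of -0.35 (SE 0.091) had an adjusted p of 0.0550 by edgeR and of 0.0144 by DESeq2. *Mylip* (ENSMUSG00000038175; chromosome 13, 45389742 to 45412022, forward strand), whose product (also called IDOL) marks lipoprotein receptors for degradation, had 15.4, 14.97 and 14.1 CPM and then 18.1, 18.7 and 20.9 CPM. The WT values were tight and all lay under the *Themis*-KO values. The means were 14.8 ± 0.675 and 19.2 ± 1.501 CPM (SD, n = 3 each), and the log2 fold change of 0.38 (SE 0.10) had an adjusted p of 0.0562 by edgeR and of 0.0631 by DESeq2. It passed in 1 of 15 alternative fits, edgeR with libraries scaled by total counts alone (adjusted p = 0.0254).

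*Lpcat3* (ENSMUSG00000004270; chromosome 6, 124663027 to 124704418, forward strand) puts polyunsaturated chains into membrane phospholipids. It had 155, 178 and 150 CPM in livers labelled WT and 125, 115 and 176 CPM in those labelled *Themis*-KO. *Themis*-KO replicate 3 lay within the WT range, while its group mates were under all WT livers. The means were 161 ± 14.6 and 139 ± 32.6 CPM (SD, n = 3 each), and the log2 fold change was -0.21 (SE 0.16, 95% interval -0.59 to 0.16, adjusted p = 0.398 by edgeR). Without *Themis*-KO replicate 3 it was -0.44, with an adjusted p of 0.0203 by edgeR. Of its exonic bases, 10.2% are shared with *Emg1* on the opposite strand, and whether the counting used strand is not given in the sources used here.

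**Figure D3:**
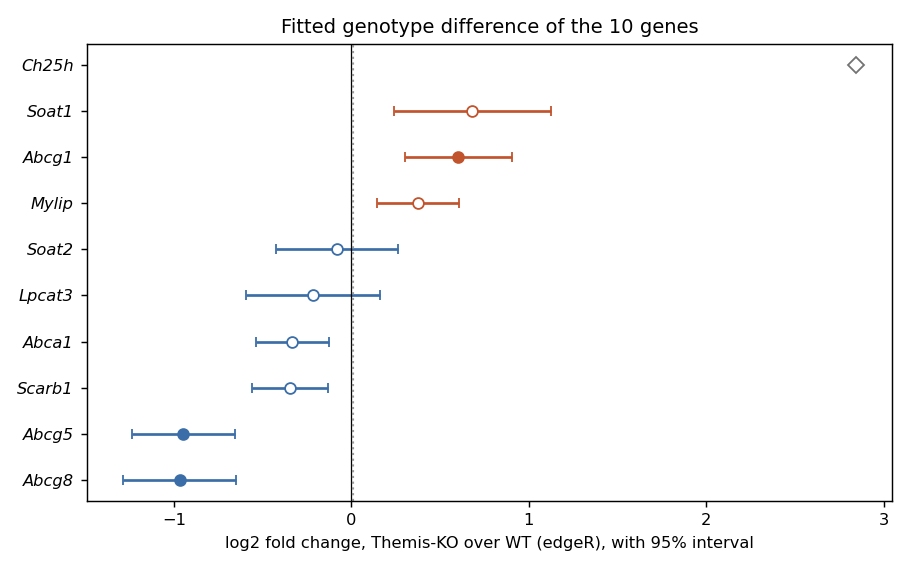
Log2 fold change of each of the 10 genes, livers labelled *Themis*-KO over WT, with its 95% interval from edgeR for all but *Ch25h*. Filled circles passed an adjusted p of 0.05, open circles did not, and the grey diamond is *Ch25h*, shown without an interval or a test. The intervals of *Abcg5* and *Abcg8* reach up to -0.66 and -0.65, and those of *Soat2* and *Lpcat3* span 0.

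Per kilobase of annotated exon, the sterol genes of livers labelled WT spanned from 81.2 CPM per kb for *Abcg5* down to 0.238 for *Ch25h*. In between came *Lpcat3* at 49.2, *Abcg8* at 48.8, *Scarb1* at 18.3, *Soat2* at 16.5, *Abca1* at 14.0, *Mylip* at 4.59, *Abcg1* at 2.18 and *Soat1* at 0.847 CPM per kb. The neighbours *Lpcat3* and *Abcg8*, *Scarb1* and *Soat2*, and *Soat2* and *Abca1* overlapped over the livers, and all other neighbours were apart. In livers labelled *Themis*-KO, *Lpcat3* at 42.4 and *Abcg5* at 42.1 CPM per kb overlapped at the top. *Abcg8* followed at 24.99, *Soat2* at 15.6, *Scarb1* at 14.4, *Abca1* at 11.1, *Mylip* at 5.95, *Abcg1* at 3.32, *Ch25h* at 1.75 and *Soat1* at 1.36 CPM per kb. The range of *Ch25h* overlapped both *Abcg1* and *Soat1* there. The other 7 genes stood above *Abcg1*, *Soat1* and *Ch25h* in both groups.

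Around these genes, 10 lists of related genes held 119 tested genes, of which 10 were called higher and 10 lower (edgeR adjusted p under 0.05). Of all tested genes, 4.97% were called higher and 4.14% lower, shares that stand beside the count of every list below. The median log2 fold change of the list genes was -0.057 against 0.0095 over all tested genes. The lists, too, were drawn up with results of these data known, and no list was tested as a set. Nothing is read from their counts of calls. Scaling by total counts alone raised the median of all tested genes to 0.15, and gave 18 calls higher and 6 lower in these lists.

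The receptors came first. *Nr1h3* (LXRα), at 87.4 and 79.0 CPM, had a log2 fold change of -0.15 (adjusted p = 0.323), and *Nr1h2* (LXRβ), at 34.9 and 36.9 CPM, had 0.081 (adjusted p = 0.498). Their partner *Rxra* was the 1 call among 5 receptors: it had 465, 445 and 433 CPM in livers labelled WT and 312, 343 and 353 CPM in those labelled *Themis*-KO, and fell by 0.42 on the log2 scale (adjusted p = 0.0351, SE 0.088). Of 15 other LXR targets 1 was called, where 9.11% of all tested genes were called in either direction. This was *Lpl*, which encodes lipoprotein lipase and rose by 0.76 (adjusted p = 0.0412, SE 0.18). The lipogenic LXR target *Srebf1* had 416, 503 and 446 CPM and then 273, 221 and 482 CPM. *Themis*-KO replicate 3 lay among the WT livers, and the log2 fold change of -0.48 had an adjusted p of 0.249. *Cyp7a1*, the rate-limiting enzyme of bile acid synthesis, showed the same split, with 61.6, 166 and 85.0 CPM and then 11.6, 9.33 and 75.7 CPM (log2 fold change -1.70, SE 0.78, adjusted p = 0.183).

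Among the 17 tested genes of other oxysterol enzymes, receptor and binding proteins, 3 enzymes were called lower and 1 binding protein higher. Of all tested genes, 4.14% were called lower and 4.97% higher. *Cyp7b1*, which clears 25-hydroxycholesterol, had 130, 72.5 and 75.8 CPM in livers labelled WT and 30.3, 25.5 and 27.5 CPM in those labelled *Themis*-KO. All livers labelled *Themis*-KO were far under the WT livers, with a log2 fold change of -1.74 (adjusted p = 0.0123, SE 0.22). *Hsd11b1*, which also reduces 7-oxygenated sterols, fell by 0.69 (adjusted p = 0.0134), and *Cyp27a1*, the sterol 27-hydroxylase, fell by 0.55 (adjusted p = 0.0264). *Osbpl10*, an oxysterol-binding protein gene at 0.221 and 0.879 CPM, rose by 1.97 (adjusted p = 0.0249). *Hsd3b7*, which acts after CYP7B1, had a log2 fold change of -0.38 (adjusted p = 0.0639). The receptor gene *Gpr183* was near the detection limit at 0.401 and 0.800 CPM, with a log2 fold change of 0.99 (adjusted p = 0.168). The fitted RNA changes of *Ch25h* and *Cyp7b1*, whose products make and clear 25-hydroxycholesterol, had opposite signs. *Ch25h* was listed because of its rise, and it rests on 5, 6 and 12 counts in livers labelled WT. The opposite signs are therefore a description without a test. No sterol was measured in these files.

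The SREBP2 programme of cholesterol synthesis and uptake, 26 genes, had a median of -0.11 and 2 calls, both lower, where 4.14% of all tested genes were called lower. They were *Tm7sf2* by 0.68 (adjusted p = 0.0439) and *Ebp* by 0.61 (adjusted p = 0.0131), which encode late enzymes of the pathway. *Srebf2*, at 36.4 and 36.1 CPM, had a log2 fold change of -0.014 (adjusted p = 0.926). *Insig1*, whose product retains the SREBP2 precursor in the endoplasmic reticulum, had 143, 165 and 190 CPM and then 114, 86.8 and 224 CPM. *Themis*-KO replicate 3 was the highest of all 6 livers, and the log2 fold change was -0.23 (adjusted p = 0.654).

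Of 11 tested genes of cholesterol trafficking and ester hydrolysis, *Lipe*, the hormone-sensitive lipase that also cuts cholesteryl esters, fell by 1.05 (adjusted p = 0.0131). *Gramd1c*, a sterol transfer protein gene, fell by 0.44 (adjusted p = 0.0302), and *Npc2*, which moves cholesterol out of lysosomes, rose by 0.31 (adjusted p = 0.0398). Of 10 HDL genes only *Lcat*, which esterifies cholesterol on HDL, was called, where 4.14% of all tested genes were called lower. *Lcat* fell by 0.38 (adjusted p = 0.0414). Among 10 tested transporters of the ABCA and ABCG families, *Abca5* rose by 1.10 (adjusted p = 0.0418) and *Abca8a* fell by 0.93 (adjusted p = 0.0154). The last list joined other acyltransferases of the MBOAT family and other enzymes named LPCAT, 8 of them tested. *Lpcat4* rose by 1.16 (adjusted p = 0.0369) and *Lpcat1* by 0.88 (adjusted p = 0.0418), where 4.97% of all tested genes were called higher. The other tested genes of this list, among them *Mboat1* and *Mboat7*, were not called.

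*Ch25h* is an interferon-inducible gene, and of 15 interferon-stimulated genes 4 were called, all of them higher, where 4.97% of all tested genes were called higher. *Oasl2* rose by 0.79 (adjusted p = 0.0161), *Ifit2* by 0.79 (adjusted p = 0.0246), *Oas1a* by 0.75 (adjusted p = 0.0255) and *Irf7* by 0.36 (adjusted p = 0.0426). *Oasl2* had 10.9, 10.3 and 11.8 CPM in livers labelled WT and 20.1, 20.3 and 16.8 CPM in those labelled *Themis*-KO. Spread differed within the list: *Cxcl10*, named after its values were seen, had 3.58, 4.41 and 5.09 CPM and then 13.4, 7.70 and 3.87 CPM. The median of the 15 genes was 0.36.

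**Figure D4:**
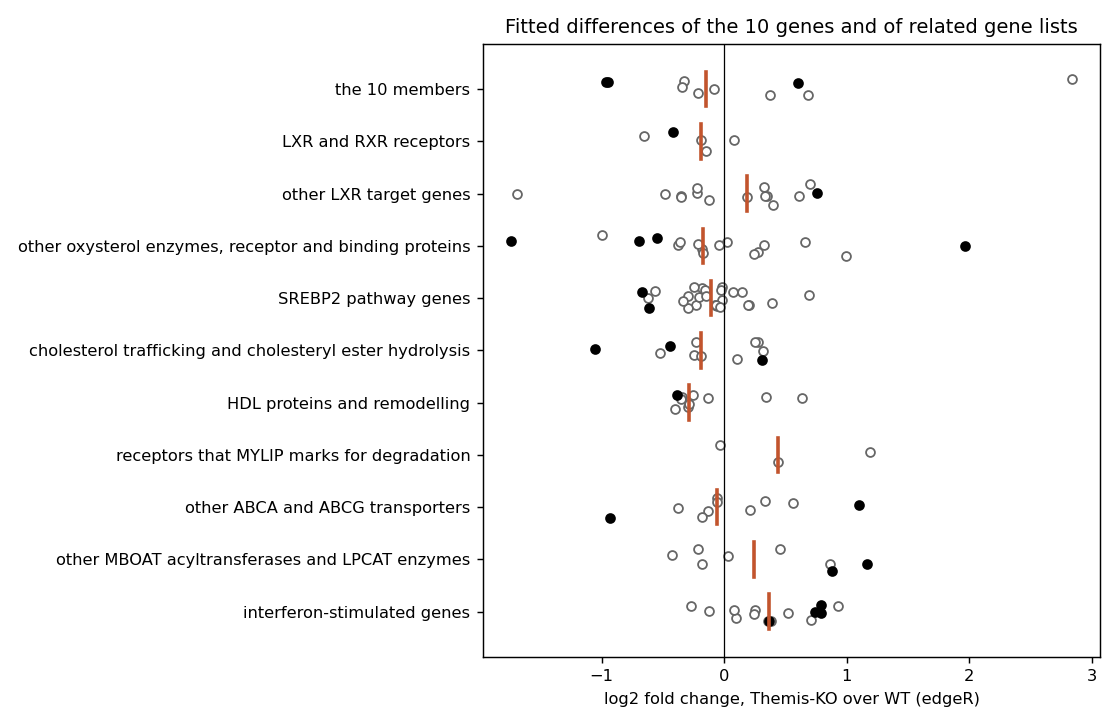
Log2 fold change (livers labelled *Themis*-KO over WT, edgeR) of the 10 sterol genes and of each tested gene in 10 related lists, 1 point per gene and 1 line per list, with a short vertical bar at the list's median. Filled points passed an adjusted p of 0.05, and *Ch25h*, the point farthest to the right, is drawn open because it is shown without a test. Medians run from -0.29 for HDL genes to 0.44 for the receptors that MYLIP marks.

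Markers of liver cell types moved between the groups as well, and their part in the sterol gene values was not tested. Of all tested genes, 4.97% were called higher and 4.14% lower, and the groups did not overlap in CPM for 34.6%. These shares are for single genes and stand beside every marker count here and in the next paragraph. The 10 hepatocyte markers summed to 56165 to 60953 CPM in livers labelled WT and 46141 to 51463 CPM in those labelled *Themis*-KO, without overlap. Most of this sum was *Alb*, at 39776 to 43024 and 33597 to 37327 CPM. *Alb* had a log2 fold change of -0.26, *Apoa1* -0.29 and *Ttr* -0.27, all without passing. Of the 10 markers 3 were called, all lower, and the median was -0.35. The 11 macrophage markers summed to 244 to 445 and 389 to 540 CPM, which overlap, and had 3 calls, all higher, and a median of 0.63. The called ones, *Cd68*, *Trem2* and *Gpnmb*, were named after their values were seen, and the most abundant, *Lyz2*, *Clec4f* and *Csf1r*, had log2 fold changes of 0.71, 0.14 and 0.63. *Marco* and *Timd4*, also named after their values were seen, had -1.29 and -0.63 without passing.

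Stellate cell and fibroblast markers summed to 422 to 484 CPM in livers labelled WT and 637 to 675 CPM in those labelled *Themis*-KO. Of these, 5 of 10 were called higher, where 4.97% of all tested genes were called higher. *Dcn* rose by 0.39 and *Col3a1* by 0.94, and *Rgs5* had 0.39 without passing. Cholangiocyte markers summed to 158 to 196 and 395 to 632 CPM, with 3 of 8 called higher. *Spp1* rose by 1.44, and *Sox9* and *Epcam* had 0.81 and 0.97 without passing. Endothelial markers summed to 215 to 232 and 238 to 263 CPM with 1 of 9 called, *Lyve1*, named after its value was seen. The abundant *Stab2*, *Cdh5* and *Kdr* had 0.074, 0.37 and -0.13, the last with a sign that turns when libraries are scaled by total counts alone. T cell markers summed to 4.46 to 6.08 and 4.09 to 7.35 CPM. Of 6 tested, *Cd4* was called lower, by 1.46, where 4.14% of all tested genes were called lower. *Il7r* and *Cd8a* had 0.66 and 1.38 without passing. B cell markers summed to 11.6 to 18.3 and 7.23 to 15.5 CPM with a lowest adjusted p of 0.294 by edgeR, and *Ighm* and *Cd79b* had -0.41 and 0.19. The tested neutrophil markers *Csf3r*, *S100a9* and *S100a8* had 0.98, 1.21 and 1.13, with a lowest adjusted p of 0.113 by edgeR. No defining marker was at 0 in every liver.

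Calls came and went between settings while most directions stayed. Over 15 alternative fits *Abcg5* ran from -1.05 to -0.75 and *Abcg8* from -1.10 to -0.75 on the log2 scale, and *Abcg1* from 0.37 to 0.74, each with 8 fits past the threshold. *Ch25h* ran from 2.04, without *Themis*-KO replicate 1, to 3.23. *Soat2* alone changed sign. The lower ends of *Abcg1* and *Soat1*, at 0.37 and 0.31, came from WT replicate 3 alone against the livers labelled *Themis*-KO.

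**Figure D5:**
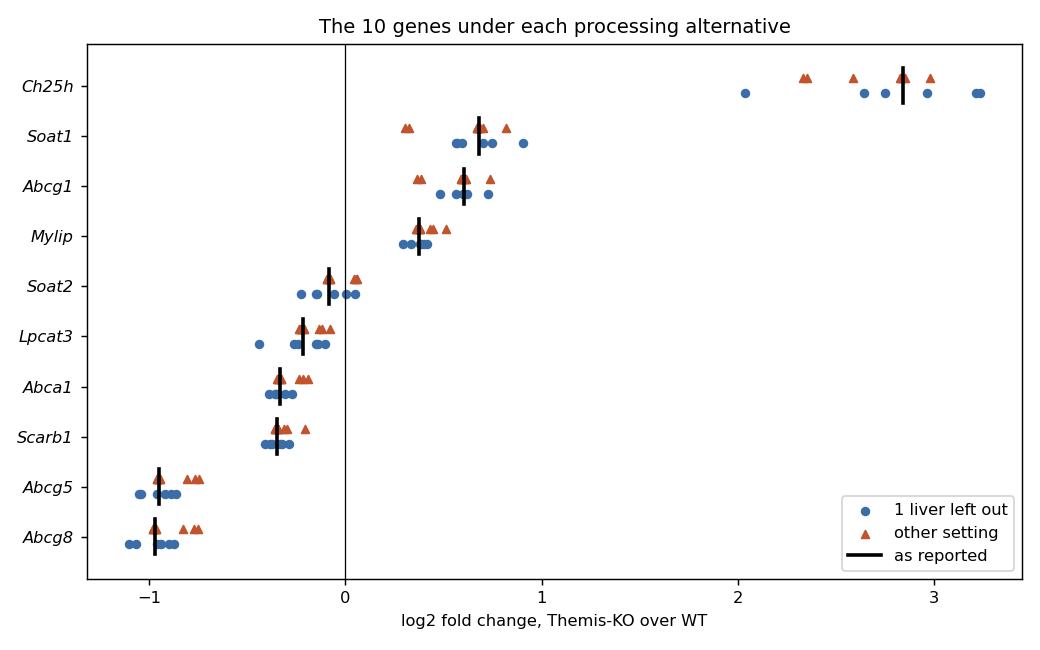
Log2 fold change of the 10 genes under each alternative, livers labelled *Themis*-KO over WT: circles leave out 1 liver, triangles change another setting, and vertical bars mark the values reported above. *Abcg5* and *Abcg8* stay at or under -0.75, and *Soat2* falls on both sides of 0.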

How the data were processed

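RNA of frozen livers was sequenced from poly(A) libraries. The authors trimmed reads with cutadapt 2.3, mapped them to GRCm38 with STAR 2.7.8a and estimated gene counts with RSEM 1.3.3, according to the submitters' processing notes and the Methods, and deposited these estimated counts without normalization as whole numbers. The annotation release, the strand setting and the rounding are not given in the sources used here. RSEM divides reads that fit several genes.

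The counts were tested with edgeR 4.0.16 (limma 3.58.1) in R 4.3.3: filterByExpr by genotype removed 10907 genes, libraries were scaled by TMM, and glmQLFit and glmQLFTest compared the 3 livers labelled WT with the 3 labelled *Themis*-KO without covariates, with Benjamini-Hochberg adjustment and a threshold of 0.05. The authors used DESeq2, here the alternative in version 1.42.0. CPM carry no prior count. Depth was 20679642 to 25649767 counts per library. The biological coefficient of variation was 0.157, and no libraries agreed within sampling noise (lowest chi-square per degree of freedom 9.80). The fits were tested on simulated data. The sterol genes, the related lists and the markers were chosen with earlier results of these data known. Named genes are the 10 sterol genes, *Themis*, 11 sterol regulators, up to 4 called genes with the largest change per related list (or the most abundant gene), the 3 most abundant genes per marker list, and the 5 genes most like *Ch25h* in log2 CPM with a prior count of 2. Some genes that this rule covers are not reported here. *Gm28438* and *mt-Nd3* were named after their values were seen.

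Coordinates and exon lengths come from GENCODE vM21, which holds 25321 of the 25403 genes. RefSeq promoter windows covered 7 of the 10 genes, and motifs were chosen after the sequences were read. Alternatives were RLE, upper quartile and total-count scaling, other filters, DESeq2 and the replicate number as a block. Further ones were the *Gm28438* share, split at 50% into high and low, as a covariate, each liver left out and other thresholds. WT replicate 3 alone was chosen after the data were examined. Figures were drawn with matplotlib 3.10.9.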

Additional observations from a re-analysis of the deposited data

How the results depend on the processing

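Counts in this paragraph are from edgeR unless another tool is named, and are given as higher and lower. Counted with *Ch25h*, whose call is no test because its rise chose it, 2 and 2 of the 10 sterol genes (1 and 2 without it), 721 and 600 of all genes and 10 and 10 of the related-list genes were called. RLE and upper quartile scaling left all of these within 1.5 times. Scaling by total counts alone gave 4 and 2, 1449 and 387, and 18 and 6, so that 78.9% of all calls were higher instead of 54.6%. No filter on low counts gave 3 and 3 and, for all genes, 1212 and 967. At least 10 counts in every liver gave 1 and 2, since *Ch25h* was then not tested. DESeq2 gave 3 and 4, 1207 and 1072, and 15 and 17. An adjusted p under 0.1 gave 4 and 4, and 1664 and 1316, and a fold change of at least 2 gave 1 and 0, and 269 and 162. The *Gm28438* share, high or low, as a covariate gave 0 and 0 (2 and 2 at an unadjusted p under 0.05), 0 and 3, and 0 and 0 (7 and 13 unadjusted). In that fit only WT replicate 3 is on the side of the livers labelled *Themis*-KO, so it is no check separate from the next. WT replicate 3 alone, where an arm of 1 liver lets few genes pass, gave 0 and 0 (0 and 2 unadjusted), 0 and 9, and 0 and 0 (5 and 13 unadjusted). Leaving out 1 liver at a time moved the sterol genes from 0 to 3 and from 0 to 5, all genes from 8 to 2228 and from 12 to 2039, and list genes from 0 to 22 and from 0 to 33. For all genes the highest counts came without *Themis*-KO replicate 3 and the lowest without *Themis*-KO replicate 1. *Soat2* changed sign with total counts alone (0.057), the covariate (0.062), WT replicate 3 alone (0.042), without WT replicate 2 (0.052) and without *Themis*-KO replicate 2 (0.0039), and ran from -0.22 to 0.052 with 1 liver left out. No other sterol gene changed sign in any of these fits. The cause of these changes was not tested.

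With the replicate number as a replicate block, 0 and 0 sterol genes were called (4 and 4 at an unadjusted p under 0.05), 17 and 45 of all genes, and 0 and 2 of the list genes, with adjusted p-values of 0.0607 for *Abcg5*, 0.0643 for *Abcg8* and 0.0946 for *Abcg1* by edgeR. Livers with the same number did not deviate together (mean correlation across genes -0.13). The mean for different numbers was 0.066, but centring each gene on its group mean ties it to the first value. Although the study describes the livers as pairs, no source used here says what makes a pair or that the numbers mark it. Whether the numbers pair the livers is therefore not known.

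The groups hold 3 livers each, WT livers lie on both sides of the *Gm28438* split, and the *Ch25h* values of livers labelled WT rest on 5 to 12 counts.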
